A study of Mus musculus with 30 samples.

Results

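The genes described here code for proteins of the muscle Z disc and for the muscle ankyrin repeat proteins, with the NAD enzyme gene Nmrk2 beside them. They are Ankrd1, Ankrd2, Ankrd23, Csrp3, Flnc, Xirp1, Xirp2 and Nmrk2, listed as stretch-responsive genes of striated muscle, and every probe set that carries one of these names as its single gene symbol was taken. The list was chosen with the heart values of these arrays known, above all the differences from day 0 and the differences from day 1, so those differences are given as a description and carry no test. Of the 8 genes, 7 were found, with 9 probe sets, among 18193 genes on the array. Xirp2 has no probe set with its single symbol and was not analysed here.

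The study followed male C57BL/6 mice, 8 to 10 weeks old, during an infusion of angiotensin II, a peptide hormone that raises blood pressure, from an implanted osmotic pump at 1500 ng/kg/min. RNA of brain, heart, kidney and vessel was hybridized to Affymetrix Mouse Genome 430 2.0 arrays after 1, 3 and 7 days, and the day 0 samples had no angiotensin II. There were 3 heart arrays and 2 kidney arrays at each of the 4 times, 2 brain arrays at days 0, 3 and 7, and 1 vessel array at each time, 30 arrays in all. The labels do not say whether the day 0 mice carried a pump, which vessel was taken, or which organs came from the same mouse. They call the replicates biological without saying that each is a separate mouse, so p-values measure the spread between these samples. Values are intensities on a linear scale, and differences were taken on log2(intensity + 16), which understates changes of weak signals.

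Ankrd1, Ankrd2 and Ankrd23 make up the family of muscle ankyrin repeat proteins, which bind the elastic part of titin in the sarcomere and are also found in the nucleus. Csrp3 codes for muscle LIM protein and Flnc for filamin C, an actin crosslinker, and both proteins sit at the Z disc, where the thin filaments of neighbouring sarcomeres are anchored. Xirp1 codes for Xin, an actin-binding repeat protein of the intercalated discs that join heart muscle cells. Nmrk2 codes for a muscle kinase that turns nicotinamide riboside into nicotinamide mononucleotide, a precursor of NAD.

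On all 12 heart arrays, all 12 cardiac muscle markers exceeded the array's 40th percentile, the level used as the filter on dim genes, while of 13 fast skeletal markers 6 exceeded it on all 12 and 4, Mybpc1, Myh1, Myh2 and Myh4, were under it on all 12. The vessel arrays carried markers of other tissues: all 12 cardiac markers exceeded that percentile on all 4 of them, and the brown fat gene Ucp1 had an intensity of 22424 in the day 0 vessel. Because the RNA came from bulk tissue, fewer cells of a type and less RNA per cell cannot be told apart.

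The promoters of the 4 members with the largest heart differences at day 1 are shown so that the sequence before each start can be read beside the values. Each is the 250 bases before the RefSeq start in build GRCm38.p6, read 5′ to 3′ on the strand of the gene. Capitals mark MCAT motifs (CATTCC on either strand, thus also GGAATG) and TATAAA, the only searched motifs found in these windows.
Ankrd1, chr19:36119845-36120094, minus strand: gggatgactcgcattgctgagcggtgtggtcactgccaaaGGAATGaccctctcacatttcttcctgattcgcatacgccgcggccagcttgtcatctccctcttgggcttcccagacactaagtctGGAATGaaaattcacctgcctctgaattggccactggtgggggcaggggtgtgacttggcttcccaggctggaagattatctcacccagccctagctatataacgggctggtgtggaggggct
Ankrd2, chr19:42035777-42036026, plus strand: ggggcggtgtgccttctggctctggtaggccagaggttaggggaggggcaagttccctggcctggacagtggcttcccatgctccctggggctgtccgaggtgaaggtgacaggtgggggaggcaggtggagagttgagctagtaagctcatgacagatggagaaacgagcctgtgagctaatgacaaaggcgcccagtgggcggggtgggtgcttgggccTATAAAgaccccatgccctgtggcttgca
Nmrk2, chr10:81202038-81202287, minus strand: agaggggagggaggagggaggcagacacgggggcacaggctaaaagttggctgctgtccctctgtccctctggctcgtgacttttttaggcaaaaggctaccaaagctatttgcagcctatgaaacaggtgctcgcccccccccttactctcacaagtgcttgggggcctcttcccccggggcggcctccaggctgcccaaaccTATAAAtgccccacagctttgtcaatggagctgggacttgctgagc
Flnc, chr6:29432903-29433152, plus strand: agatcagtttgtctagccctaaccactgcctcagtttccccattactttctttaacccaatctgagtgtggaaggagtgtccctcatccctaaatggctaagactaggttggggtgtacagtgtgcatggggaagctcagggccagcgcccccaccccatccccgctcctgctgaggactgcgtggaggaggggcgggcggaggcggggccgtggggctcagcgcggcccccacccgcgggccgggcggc

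The Ankrd1 window held 2 MCAT motifs, which ended 205 and 118 bases before the start. The Ankrd2 window held TATAAA from 29 to 24 bases before the start, and the Nmrk2 window held it from 46 to 41 bases before the start. The Flnc window shown held none of the motifs. RefSeq windows were found for 7 of the 8 listed genes, 10 windows in all, with no entry for Xirp1. MCAT was found in 3 of the 10 windows, 1 each of Ankrd1, Ankrd23 and Flnc (in Flnc in the window at its other start), and in 12.6% of all 32851 RefSeq windows. TATAAA was found in 2 of the 10, those of Ankrd2 and Nmrk2, against 12.4% of all windows. The AP-1 motif TGANTCA, present in 6.75% of all windows, and the MEF2 motif, present in 2.92%, were each found only in Xirp2 among the members, and the CArG box, present in 1.47%, in none. Both strands were searched, no match overlapped another, and the motifs were chosen with the sequences in view. A match here describes the letters and does not show a bound site.

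For 6 of the 7 members, every heart array lay above every array of the other organs. These were Ankrd1, Ankrd23, Csrp3, Flnc, Xirp1 and Nmrk2. The members were listed as muscle genes, and the share of all genes with this separation was not computed. The count is therefore a description only. Ankrd2 was the exception, since its dimmer hearts overlapped the other organs. Csrp3 had heart intensities from 10248 to 16579 with a median of 11684, against medians of 673 in vessel, 34.3 in kidney and 29.8 in brain. Ankrd1 had a heart median of 6545, a vessel median of 646, a kidney median of 23.6 and a brain median of 10.2, and its tissues did not overlap at any step of that order. The order heart, vessel, kidney, brain held for the medians of all 7 genes over all arrays of a tissue, treated and untreated. At day 0 alone it did not hold for Ankrd2, at 31.8 in heart, 35.6 in vessel and 33.3 in kidney. Kidney and brain overlapped for 6 of the 7, all but Ankrd1, and vessel and kidney overlapped for Ankrd2, Ankrd23 and Nmrk2. By the second Ankrd1 probe set kidney and brain overlapped too, at 9.58 to 29.1 in kidney and 8.56 to 14.3 in brain.

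**Figure D1:**
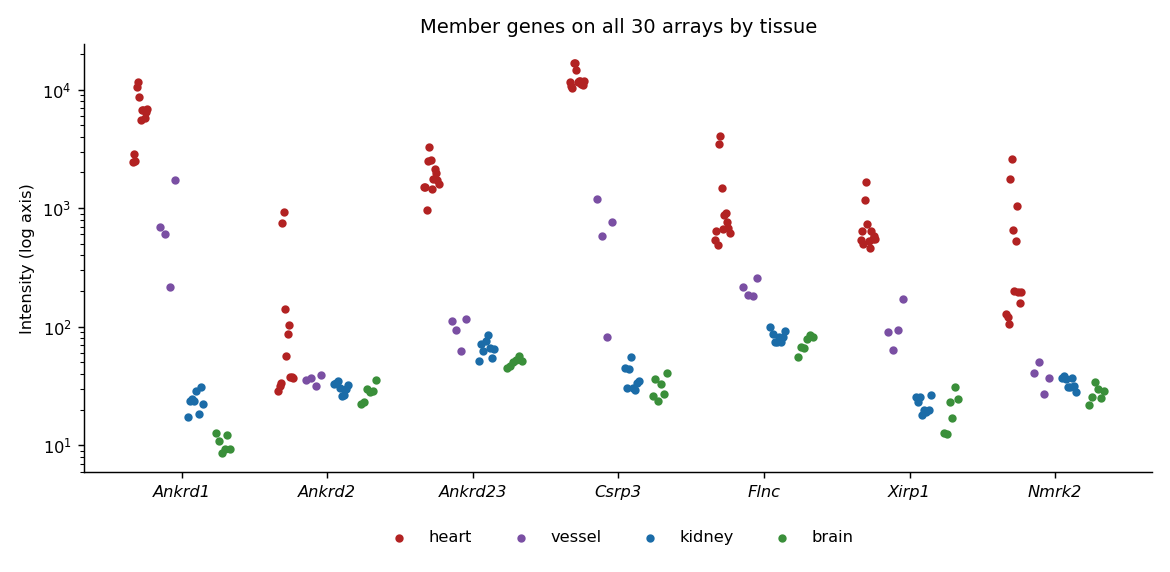
Intensity (log axis) of the 7 members on all 30 arrays, coloured by tissue, 1 point per array and the probe set with the highest mean for each gene. The 12 heart points lie above the others for 6 genes, and for Ankrd2 the lower heart points lie among those of the other organs.

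The 3 muscle ankyrin repeat genes were higher in the heart after 1 day of angiotensin II, to different extents. Ankrd1 had intensities of 2460, 2847 and 2479 in the 3 day 0 hearts, and 10560, 11523 and 8643 in the 3 day 1 hearts. At day 3 they were 5561, 6659 and 6762, and at day 7 they were 5786, 6430 and 6790. Ankrd1 was above every day 0 heart in all 9 treated hearts, and it stayed high, with the day 3 and day 7 hearts between the day 0 and day 1 hearts and not overlapping either. The differences from day 0 were 1.97 ± 0.12 (SE, n = 3 against 3), a 3.91-fold change, at day 1, 1.28 at day 3 and 1.28 at day 7, both 2.43-fold. A second Ankrd1 probe set gave 2.49, 1.66 and 1.52, and over the 12 hearts the pair of probe sets correlated with r = 0.992.

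Ankrd2, which in striated muscle is best known from slow fibres, was dim at day 0. Its intensities were 28.8, 31.8 and 33.6 at day 0, 744, 921 and 141 at day 1, 57.2, 86.2 and 104 at day 3, and 37.8, 37.7 and 37.3 at day 7. The day 1 hearts were the highest, replicate 3 far below the other 2, and every treated heart was above every day 0 heart. The differences were 3.35 ± 0.48 (10.2-fold) at day 1, 1.03 at day 3 and 0.18 at day 7. With 64 in place of 16 added before log2, the Ankrd2 difference at day 1 was 2.52.

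Ankrd23 showed the smallest day 1 difference of the family. Its intensities were 1521, 1497 and 970 at day 0, 2482, 3297 and 2525 at day 1, 1462, 1756 and 2123 at day 3, and 1994, 1736 and 1588 at day 7. The day 1 hearts did not overlap any other day, while the day 3 hearts overlapped the day 0 hearts. The difference was 1.07 ± 0.19 (2.09-fold) at day 1 and 0.43 at both later days.

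Csrp3 was bright in every heart and had the smallest differences at day 1. Its intensities were 11487, 10787 and 10248 at day 0, 16566, 16579 and 14681.5 at day 1, 11663, 11704.5 and 11738 at day 3, and 11173, 10983 and 11787.5 at day 7. The 3 day 1 hearts stood above all 9 others, and the day 7 hearts overlapped the day 0 hearts. The difference was 0.55 ± 0.09 (1.47-fold) at day 1, 0.11 at day 3 and 0.06 at day 7.

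Flnc had intensities of 543, 648 and 491 at day 0, 3482, 4053 and 1480 at day 1, 667, 880 and 914 at day 3, and 757, 675 and 616 at day 7. The day 1 hearts were again the highest, with replicate 3 the lowest of them, and the day 7 hearts overlapped the day 0 hearts. The difference was 2.27 ± 0.28 (4.84-fold) at day 1, 0.53 at day 3 and 0.28 at day 7. The representing probe set is of the type whose probes can match other transcripts. The second Flnc probe set, of the ordinary type, gave 2.23, 0.44 and 0.10, and the pair correlated with r = 0.995 over the 12 hearts.

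Xirp1 had intensities of 540, 646 and 495 at day 0, 1179, 1659 and 733 at day 1, 532, 464 and 644 at day 3, and 549, 578 and 548 at day 7. All 3 day 1 hearts lay above all 9 others, and the other 3 days overlapped. The difference was 0.998 ± 0.22 (1.998-fold) at day 1, and −0.04 and 0.0031 at days 3 and 7.

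Nmrk2 had the largest difference at day 1. Its intensities were 128, 122 and 105 at day 0, 1773, 2606 and 654 at day 1, 202, 524 and 1033 at day 3, and 196, 160 and 198 at day 7. Every treated heart was above every day 0 heart, and replicate 3 of day 3 lay above the lowest day 1 heart. The difference was 3.45 ± 0.50 (10.9-fold) at day 1, 1.89 at day 3 and 0.58 at day 7.

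**Figure D2:**
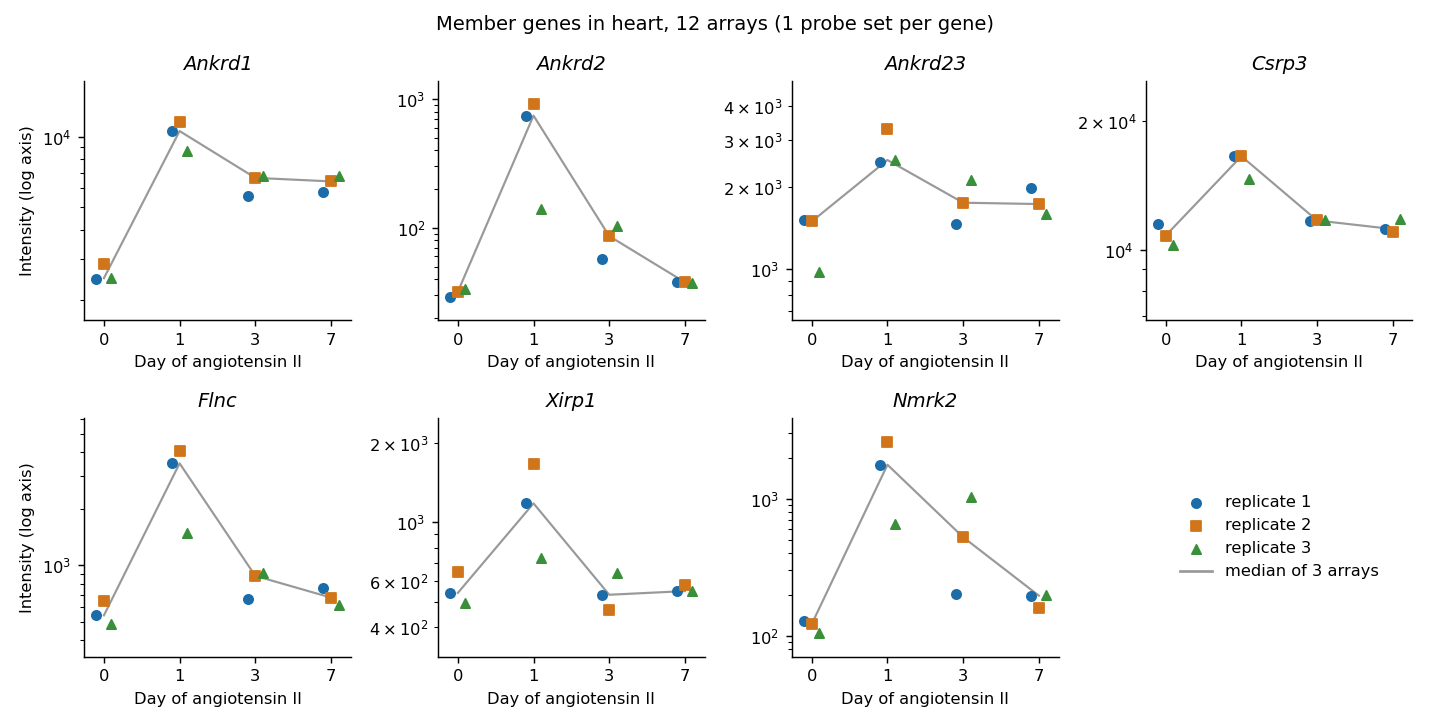
Intensity (log axis) of each member in the 12 hearts against the day of angiotensin II, with symbols for the replicates and a line through the median of 3 arrays. All members are highest at day 1, Ankrd1 stays above its day 0 level at days 3 and 7, and replicate 3 of day 1 is low for Ankrd2, Flnc, Xirp1 and Nmrk2.

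Counted over the list, all 7 members passed the limma threshold as rises at day 1, against 4.86% of the 14040 genes tested in heart, and 0 as falls, against 8.57%, and for all 7 every day 1 heart was above every day 0 heart, against 11.4% of genes. At day 3, Ankrd1 alone passed as a rise, with 0.0712% of genes, and no member as a fall, with 0.0142%, and 5 members had hearts that did not overlap day 0 from above, against 7.4% of genes. At day 7, Ankrd1 alone passed as a rise, with 0.0427% of genes, and no member as a fall, with 0.00712%, and 4 members did not overlap, against 9.28%. The members were chosen on these differences, so nothing is read from these shares. The median difference over the 7 members was 1.97 at day 1, 0.53 at day 3 and 0.28 at day 7, and the median of all tested genes was −0.02 at each. Leaving out replicate 3 of day 1 gave 3 members passing at day 3, and leaving out replicate 1 of day 3 gave 2. In the same fits 197 and 258 of all genes passed.

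From day 1 to day 3 the members came down. Ankrd2 was at −2.32, Flnc at −1.74, Xirp1 at −1.04, Ankrd1 at −0.69 and Csrp3 at −0.44 on the log2 scale, and these 5 passed the threshold as falls, against 1.47% of genes. Nmrk2 was at −1.56 and Ankrd23 at −0.64 without passing. From day 1 to day 7, 6 members passed as falls, against 2.12% of genes, with Ankrd2 at −3.17, Nmrk2 at −2.87 and Flnc at −1.99, and Ankrd23 at −0.63 not passing. These differences share the day 1 hearts with those above and were known when the genes were chosen. The counts depended on single hearts. From day 1 to day 3 the count was 0, 1 and 7 when replicate 1, 2 or 3 of day 1 was left out. It was 0 when replicate 2 of day 3 was left out. Over all genes 9, 103, 2049 and 0 passed in these fits. From day 1 to day 7 the member count was 0, 2 and 7 for the same 3 day 1 hearts. It was 3 and 2 when replicate 1 or 2 of day 7 was left out. Over all genes 11, 72, 2482, 119 and 36 passed there, so the calls of the whole array also depended on single hearts.

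The difference between day 7 and day 3 follows from the differences known when the genes were chosen, so it too is a description. No member passed in limma: 0 of 7, against 0% of all 14040 genes, while 1 member and 983 genes had an unadjusted p under 0.05. Ankrd1 was level between these days, at 0.0042 with a 95% interval from −0.26 to 0.27. Nmrk2 was at −1.32 with an interval from −2.40 to −0.23. All 3 Nmrk2 day 7 hearts were below all 3 day 3 hearts, and the same was true of Ankrd2, at −0.85 with an interval from −1.87 to 0.18. Of all genes, 7.22% had their day 7 hearts below their day 3 hearts in this way.

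The 3 day 1 hearts were not alike. Above the day 0 mean, Ankrd2 was at 4.01, 4.31 and 1.73 in replicates 1, 2 and 3, Nmrk2 at 3.74, 4.29 and 2.32, and Flnc at 2.61, 2.83 and 1.38. Xirp1 was at 1.06, 1.55 and 0.39. Replicate 3 was the lowest for these 4 genes, by 2.43, 1.69, 1.34 and 0.92 against the mean of the other 2. Replicate 3 was also lowest, by less, for Ankrd1, at 2.02, 2.15 and 1.73, and for Csrp3, at 0.61, 0.61 and 0.44, but not for Ankrd23, at 0.92, 1.33 and 0.95. Without replicate 3 the day 1 difference was 4.16 for Ankrd2 and 2.72 for Flnc.
The same hearts differed in markers of blood cells. The median of the 12 neutrophil markers tested was 1.15, 1.40 and 0.25 above day 0 in replicates 1, 2 and 3, and that of the 15 macrophage markers was 0.37, 0.72 and 0.16. Of the neutrophil markers 6 of 12 rose at day 1, among them S100a8 by 3.40 ± 0.80 (limma, adjusted p = 0.0167) and S100a9 by 3.17 ± 0.87 (limma, adjusted p = 0.0325). Of the macrophage markers 5 of 15 rose, and of all tested genes 4.86% rose at day 1. The summed intensity of the 14 neutrophil markers on the array was 530 to 1653 at day 0, 1826 to 8479 at day 1, 678 to 2057 at day 3 and 729 to 1782 at day 7, and Elane was below the 40th percentile in every heart. The summed macrophage markers were 10147 to 13247, 13036 to 19964, 13489 to 21263 and 12015 to 18678 on the same days. The fibroblast markers summed to 15981 to 23116, 16239 to 19858, 24569 to 42799 and 26062 to 29737. The 13 fast skeletal markers summed to 1910 to 2861, 3084 to 3371, 2609 to 6430 and 3558 to 5001.5. Of the 8 fast skeletal markers tested, 0 passed in limma at day 1. The cardiac markers were at 145932 to 154898, 137281 to 155827, 146828 to 154794 and 155326 to 157883. Of these cardiac markers 0 of 12 passed in limma at day 1, with 2 at an unadjusted p under 0.05, against 3982 of all 14040 tested genes. The sums do not show single markers: Myl7 ranged from 588 to 6790 over all hearts, with a median of 5967. The part of these cells in the members' values was not tested.

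**Figure D3:**
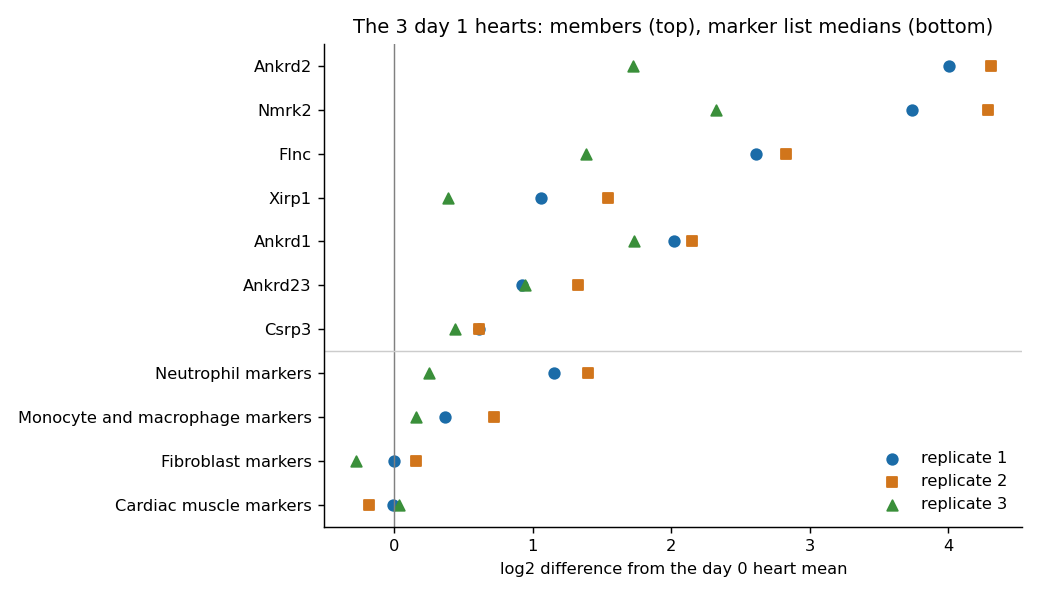
Difference of log2(intensity + 16) from the day 0 heart mean in each of the 3 day 1 hearts, for the 7 members above the line and for the medians of 4 marker lists below it. Replicate 3 is lowest for every member but Ankrd23 and for the neutrophil, macrophage and fibroblast markers, and the cardiac marker medians lie close to 0.

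Over the 12 hearts the members moved together to different degrees. The closest pair was Ankrd2 and Flnc, with r = 0.985, and the least close was Ankrd1 and Xirp1, with r = 0.626. All pairs share the same 12 arrays. Among genes outside the list, the ones most like Ankrd1 were Ccn2, a matricellular growth factor gene, with r = 0.963, Nppb, the B-type natriuretic peptide gene, with r = 0.963, and Serpinb6b with r = 0.952. Those most like Ankrd2 were Hspb1, a small heat shock protein gene, with r = 0.992, Fstl3 with 0.988 and Bcr with 0.986. Those most like Flnc were the small GTPase gene Rras2 with 0.989, Ctps with 0.987 and the LIM protein gene Fhl1 with 0.985. Those most like Nmrk2 were Psat1, a serine synthesis enzyme gene, with 0.979, Ssr1 with 0.979 and S100a4 with 0.971. Csrp3 was closest to Tom1, 0.976, the muscle anchoring protein gene Nrap, 0.969, and the heat shock protein gene Hspa1a, 0.965. Xirp1 was closest to the nucleolar genes Heatr1, 0.983, and Nop58, 0.982, and to Lmcd1, 0.980. Ankrd23 was closest to Slc25a23, 0.947, the Z disc adaptor gene Sorbs2, 0.940, and Ehd4, 0.928. All are Pearson correlations over 12 hearts, given as a description.

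The counts that follow for related genes in heart at day 1 stand beside 4.86% of all tested genes called as rises and 8.57% as falls. With 1 heart left out, the genes called either way over the whole array ranged from 405 to 3441. The fewest were called without replicate 1 of day 1 and the most without replicate 3 of day 1. Of 27 tested Z disc and titin-associated genes, 8 rose and 0 fell, and their median was 0.22 against −0.02 for all tested genes. Synpo2l, an actin-binding Z disc protein gene, rose by 2.09 ± 0.23 (limma, adjusted p = 0.0010). Lmcd1 rose by 1.82 ± 0.35 (limma, adjusted p = 0.0078) and Fhl1 by 1.71 ± 0.19 (limma, adjusted p = 0.00080). Des, which codes for the muscle intermediate filament desmin, rose by 0.83 ± 0.12 (limma, adjusted p = 0.0028). The count was 5 when replicate 2 of day 0 or replicate 1 or 2 of day 1 was left out, and 13 when replicate 3 of day 1 was.
Of 24 costamere and intercalated disc genes, 4 rose and 3 fell, with a median of 0.14. Itga7, an integrin subunit of muscle, rose by 0.82 ± 0.13 (limma, adjusted p = 0.0037), Itgb1 by 0.69 ± 0.17 (limma, adjusted p = 0.019) and the plakophilin gene Pkp2 by 0.62 ± 0.11 (limma, adjusted p = 0.0066). Fblim1, a filamin-binding LIM protein gene, fell by 1.05 ± 0.17 (limma, adjusted p = 0.0041). The count of 7 became 3 on leaving out replicate 1 or 2 of day 0 or replicate 1 of day 1, and 4 or 12 on leaving out replicate 2 or 3 of day 1.
Of 9 filamin, CRP and ankyrin repeat relatives, Ankrd10 alone rose, by 1.49 ± 0.31 (limma, adjusted p = 0.010), and the list median was −0.04. Flna was at 0.46 (limma, adjusted p = 0.096), and Csrp1 and Csrp2 were at −0.07 and 0.12. This count was 0 when replicate 1 of day 0 or of day 1 was omitted, 2 when replicate 3 of day 0 was, and 4 when replicate 3 of day 1 was.

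Around Nmrk2, the other genes of NAD synthesis and use changed in both directions at day 1, with 2 rises and 6 falls of 20 tested and a median of −0.08. Bst1, an enzyme that breaks down NAD, rose by 1.12 ± 0.27 (limma, adjusted p = 0.019), and Nt5e, an ectonucleotidase gene, by 0.78 ± 0.22 (limma, adjusted p = 0.038). Sirt3, a mitochondrial NAD-dependent deacylase gene, fell by 0.96 ± 0.15 (limma, adjusted p = 0.0036), and the mitochondrial NAD kinase gene Nadk2 by 0.60 ± 0.18 (limma, adjusted p = 0.044). The count of 8 became 2 on omitting replicate 1 or 2 of day 0 or of day 1, 5 on omitting replicate 2 of day 3 or replicate 1 or 3 of day 7, and 4 on omitting replicate 2 of day 7.
Of 31 stretch and muscle transcription regulators, 0 passed in limma and 3 had an unadjusted p under 0.05, with a median of −0.02. Mef2a was at −0.26 (limma, adjusted p = 0.12) and Hdac5 at −0.28 (limma, adjusted p = 0.13). The count was 1 on omitting replicate 3 of day 0, and 3 on omitting replicate 3 of day 1.
At days 3 and 7, 0 of the 111 list entries passed in limma, with 13 and 9 at an unadjusted p under 0.05. Of all 14040 genes, 0.0712% passed as rises and 0.0142% as falls at day 3, and 0.0427% and 0.00712% at day 7. An unadjusted p under 0.05 was reached by 1681 and 1247 of them.

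**Figure D4:**
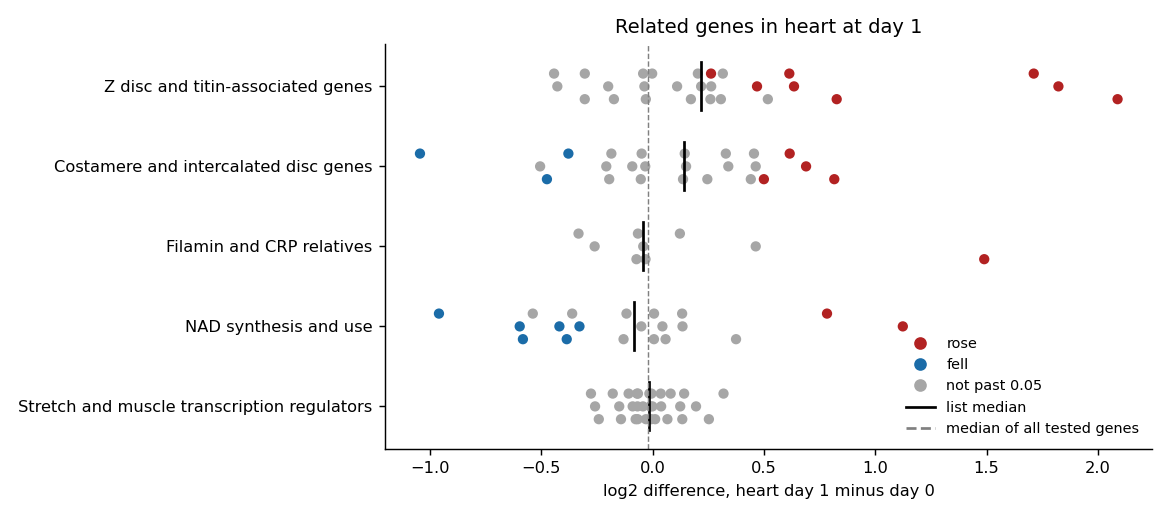
Difference of log2(intensity + 16) between day 1 and day 0 in heart, for each tested gene of 5 lists of related genes, 1 point per gene. Red points rose and blue points fell past an adjusted p of 0.05, black bars mark list medians and the dashed line the median of all tested genes; Synpo2l, Lmcd1 and Fhl1 are the rightmost points of the Z disc list.

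In the kidney the members were dim and no change passed. Csrp3 had intensities of 44.5 and 30.5 at day 0, 44.4 and 55.1 at day 1, 30.4 and 29.5 at day 3, and 33.4 and 35.1 at day 7, so day 0 overlapped days 1 and 7, and both day 3 arrays lay below all other kidney arrays. Flnc was 100.2 and 86.2 at day 0 and 74.5 and 74.5 at day 1, and its difference of −0.27, with a 95% interval from −0.50 to −0.04, had the smallest adjusted p of the members at kidney day 1 (limma, adjusted p = 0.256). The second Flnc probe set had 32.8 and 38.8 at day 0 and 28.9 and 28.8 at day 1. At day 3 it had 37.8 and 36.4, which overlapped day 0. The ankyrin repeat genes were flat or scattered. Ankrd1 had kidney intensities of 17.2 and 23.6 at day 0, 24.8 and 23.6 at day 1, 29.0 and 18.5 at day 3, and 31.1 and 22.2 at day 7, around the 40th percentile of the kidney arrays of 23.4 to 24.5. Ankrd2 had 33.2 and 33.4 at day 0, 35.1 and 30.3 at day 1, 26.2 and 26.5 at day 3, and 30.1 and 32.1 at day 7. Its day 3 difference was −0.22, with an interval from −0.41 to −0.03 (limma, adjusted p = 0.566), and both day 3 arrays lay below both day 0 arrays. Ankrd23 ranged from 51.9 to 85.0 over the 8 kidney arrays, Xirp1 from 18.0 to 26.5 and Nmrk2 from 28.3 to 38.1. The Nmrk2 day 7 difference was −0.22, with an interval from −0.45 to 0.0070 (limma, adjusted p = 0.746). At day 1, 0 of 7 members passed in limma, against 0.5% of 14214 genes, with 1 member and 2311 genes at an unadjusted p under 0.05. At day 3 it was 0 of 7 against 0%, with 1 member and 1202 genes at an unadjusted p under 0.05, and at day 7 it was 0 of 7 against 0%, with 0 members and 950 genes. Both arrays lay below both day 0 arrays for 2 of 7 members at day 1, against 22.7% of all genes, for 5 of 7 at day 3, against 16.3%, and for 2 of 7 at day 7, against 15.3%. No kidney difference of a member exceeded 0.31 in size. Fat markers moved in these kidneys: the summed intensity of 8 adipocyte markers was 2047 to 2268 at day 0, 14867 to 16280.0 at day 1, 2153 to 27687 at day 3 and 2299 to 2974 at day 7. Their part in the members' kidney values was not tested.

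In the brain, Ankrd1 stayed below the filter and was not tested. Xirp1 had intensities of 12.8 and 12.5 at day 0, 23.3 and 17.1 at day 3, and 30.8 and 24.8 at day 7. Both later days lay above day 0, around the 40th percentile of the brain arrays, which was 22.8 to 24.0. The difference was 0.61 at day 7, with an interval from 0.26 to 0.96 (limma, adjusted p = 0.666). Flnc had 55.1 and 66.9 at day 0, 65.9 and 78.6 at day 3, and 85.1 and 81.8 at day 7, where its difference was 0.37 with an interval from 0.03 to 0.72 (limma, adjusted p = 0.666). The second Flnc probe set had 30.1 and 25.3 at day 0 and 29.9 and 27.3 at day 7, and these overlapped. Ankrd2 had 22.1 and 23.0 at day 0, 30.1 and 28.0 at day 3, and 28.5 and 35.6 at day 7, and its day 7 difference was 0.31, with an interval from 0.0094 to 0.62 (limma, adjusted p = 0.666). At day 7, by the probe set representing each gene, both arrays lay above both day 0 arrays for 4 of the 6 members tested. These were Ankrd2, Ankrd23, Flnc and Xirp1, against 16.3% of all genes. At day 3 it held for 4 of 6, here Ankrd2, Ankrd23, Nmrk2 and Xirp1, against 15.4%. None of these differences passed the threshold. Xirp1 exceeded the 40th percentile only on the 2 day 7 brain arrays, and Ankrd2 only on the day 3 and day 7 arrays. Both thus entered the brain tests only through treated arrays. Nothing is therefore read from these counts or from the Xirp1 and Ankrd2 intervals. Ankrd23 ranged from 44.7 to 56.8 over the 6 brain arrays, Csrp3 from 23.7 to 40.8 and Nmrk2 from 22.1 to 34.3. Of the 6 members tested in brain, 0 passed in limma at day 3, against 0% of 14109 genes, with 0 members and 1041 genes at an unadjusted p under 0.05. At day 7, 0 of 6 passed, against 0%, with 3 members and 1006 genes. Cardiac markers in brain summed to 952 to 1120 at day 0, 763 to 988 at day 3 and 791 to 809 at day 7, with 8 of the 12 above the 40th percentile on all 6 arrays and 3, Myh6, Myl7 and Nppa, below it on all 6. The neutrophil markers summed to 1101 and 9626 on the day 0 brain arrays and to 531 to 997 at day 3 and 545 to 841 at day 7. The 13 fast skeletal markers summed to 4120 to 8751 at day 0, 704 to 3322 at day 3 and 1229 to 4800 at day 7. The part of any of these lists in the brain values was not tested. The kidney response was set against the brain response in a joint fit that used no heart array. At day 3, 0 of 7 members differed, against 0% of 15035 genes, with 4 members and 1662 genes at an unadjusted p under 0.05. At day 7, 0 of 7 differed, against 0.0133%, with 3 members and 1496 genes, and Xirp1 was at −0.66 (limma, adjusted p = 0.357).

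The vessel, with 1 array a day, allows no test. Csrp3 had intensities of 1190.5 at day 0, 586 at day 1, 81.9 at day 3 and 759 at day 7. Ankrd1 had 691, 600, 217 and 1721 on the same days, and Xirp1 had 90.5, 63.5, 93.2 and 172. The other members were flatter. Flnc had 217, 186, 180.1 and 256 on these days and Ankrd23 had 112, 93.6, 63.0 and 117. Ankrd2 stayed at 31.6 to 39.5 and Nmrk2 at 27.4 to 50.0. Csrp3 was lowest at day 3, at −3.62 from day 0, where Ankrd1 was at −1.60, and at day 7 Ankrd1 was above its day 0 level, at 1.30. Of the 21 member differences from day 0, 4 were at least 2-fold: Csrp3 at days 1 and 3 and Ankrd1 at days 3 and 7. The same size was reached by 1.41%, 6.08% and 5.35% of the 14295 genes at days 1, 3 and 7. Cardiac markers moved in these arrays, with a summed intensity of 22369.5 at day 0, 11814 at day 1, 2350.4 at day 3 and 21077 at day 7. Of the 12 markers, 11 were below their day 0 value at day 1, 11 at day 3 and 7 at day 7, with median differences of −0.90, −2.98 and −0.02. Myh6 differed from day 0 by −0.85, −3.69 and −0.23, while Myl2 was above day 0 on all 3 days, by 0.27, 0.87 and 0.97. Their part in the Csrp3 and Ankrd1 values was not tested.

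**Figure D5:**
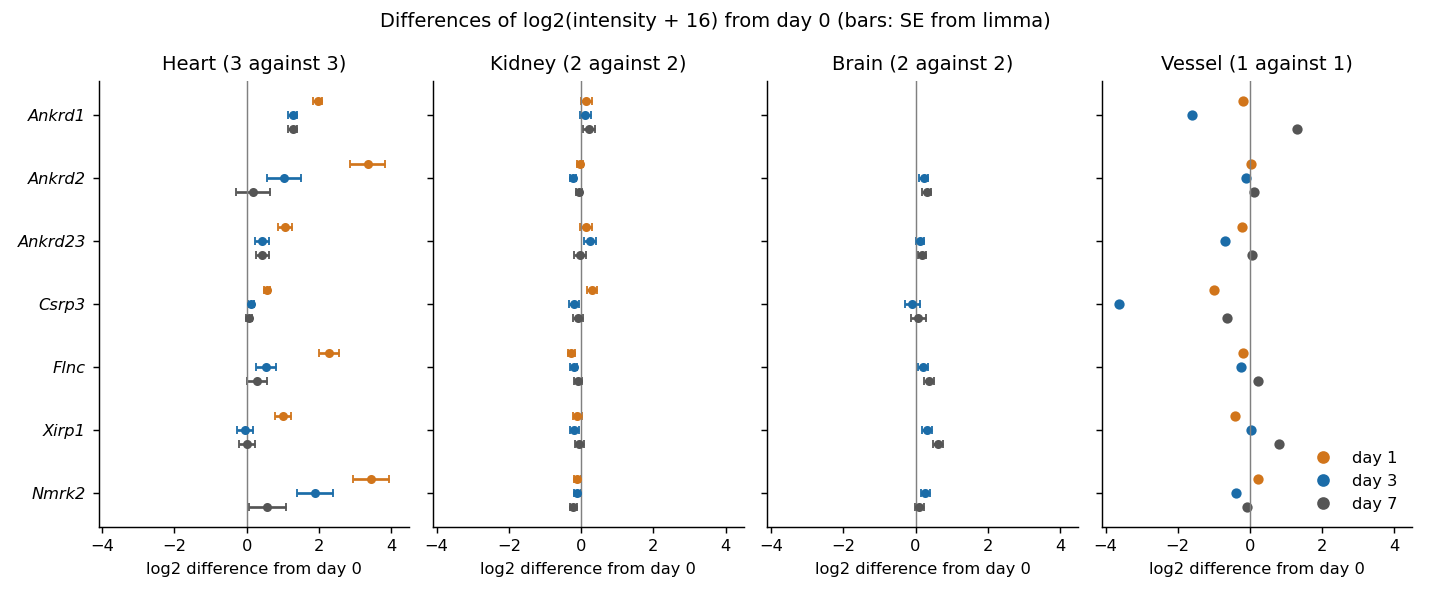
Differences of log2(intensity + 16) from day 0 for the 7 members in heart, kidney, brain and vessel, coloured by day, with bars for the limma SE where there are replicates. The heart panel holds the large positive differences at day 1, kidney and brain points lie near 0, and the vessel points, from single arrays, include Csrp3 at −3.62.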

How the data were processed

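Each array's deposited table gives 1 linear intensity for each probe set. Per the submitters' processing notes the software was Affymetrix Expression Console, with algorithm and settings not stated in the sources at hand. They ranged from 3.18 to 22424, with array medians of 35.2 to 37.8, and were not normalized again. Of 45101 probe sets, 34945 carried a single gene symbol, 932 several, 9160 none, and 64 were controls. The probe set with the highest mean represented each gene, and genes entered a tissue's tests if they exceeded the array's 40th percentile on a number of arrays equal to or above the size of the smallest group. Group means were fitted with limma 3.58.1 in R 4.3.3, p-values were adjusted by Benjamini-Hochberg across every gene tested, and the threshold was 0.05; the number of arrays limits the precision. The members and the lists were chosen with earlier results of these data known. Named genes were all members, up to 4 per related list past the threshold by size (up to 2 by p where none passed), and the 3 genes most correlated with each member. The replicate numbers were checked as a pairing, which showed none in heart and could not decide for kidney and brain. The main fits used no pairing. The fits were tested on simulated data. Tables and figures were made in Python 3.11.15. The gene annotation was GEO's platform table, with RefSeq promoters.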

Additional observations from a re-analysis of the deposited data

Results flagged for a closer look

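Differences that ran opposite ways in heart and kidney on every array were flagged, and the opposition itself was not tested. The share of all genes flagged by this rule was not computed, so nothing is read from the number of cases. Of all genes, both kidney arrays lay below day 0 for 22.7%, 16.3% and 15.3% at days 1, 3 and 7. All hearts lay above day 0 for 11.4%, 7.4% and 9.28%. Beside the heart differences given above, which were positive, the kidney differences from day 0 were −0.27 at day 1 and −0.21 at day 3 for Flnc, −0.11 at day 1, −0.11 at day 3 and −0.22 at day 7 for Nmrk2, −0.22 at day 3 and −0.0654 at day 7 for Ankrd2, and −0.21 at day 3 for Csrp3. By the rule of flagging, in each case both kidney arrays of that day were below both day 0 arrays, with the probe set representing the gene. All hearts of that day were above all day 0 hearts. With the second Flnc probe set, both kidney arrays were below day 0 at day 1, but at day 3 kidney and heart both overlapped day 0. None of these kidney differences passed the limma threshold.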

How the results depend on the processing

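Of 894 recomputed member differences in heart, 880 were counted as unchanged, 14 moved by more than the spread between replicates and 0 reversed. Unchanged meant a move smaller than that spread or, in refits of day 7 against day 3, an unchanged call. Only differences past the threshold could count as reversed, so sign changes of the others were not counted. Ankrd1 for day 7 against day 3, for example, went from 0.0042 to −0.14 with its second probe set. No call of a member in kidney, brain or the kidney and brain comparison appeared under any alternative, including each array left out. All hearts stayed above all other arrays for 6 of 7 genes after quantile normalization and with the mean of all probe sets. The vessel count was 3 to 4 under 4 alternatives. Neither of these was recomputed with an array left out, and the order of the tissue medians was not recomputed. When only the 2 groups compared were fitted, with fewer arrays for the spread, members called were 2 at day 3, 2 at day 7, 0 from day 1 to day 3 and 1 from day 1 to day 7, and the costamere and NAD lists had 3 and 2. A joint fit of heart, kidney and brain gave 2 members at day 3. The filamin and CRP list had 2 calls with 64 added, with no filter, after quantile normalization and with the mean of all probe sets, where the NAD list had 5. The cause was not tested. With 1 heart left out, members called ranged from 6 to 7 at day 1, 1 to 3 at day 3 and 1 to 1 at day 7, from 0 to 7 from day 1 to day 3 and 0 to 7 from day 1 to day 7, and stayed at 0 for day 7 against day 3. The Z disc list ranged from 5 to 13, costamere 3 to 12, filamin and CRP 0 to 4, NAD 2 to 10 and regulators 0 to 3. In the same fits the calls over all genes ranged from 405 to 3441 at day 1, 1 to 258 at day 3 and 6 to 23 at day 7. They ranged from 0 to 2049 from day 1 to day 3 and 11 to 2482 from day 1 to day 7. With the replicate number as a block, the NAD list had 4 calls and no other count moved by over 1.5 times. Same-numbered hearts had deviation correlations from −0.33 to 0.15 and other hearts from −0.27 to 0.39, so the numbers showed no pairing of hearts. Same-numbered kidneys were at −0.09 to 0.24, with 8 of 12 over 0.1, and brains at −0.64 to 0.48. With 2 arrays a group, other-numbered pairs only repeat these values with the sign turned, so a pairing of kidneys or brains could not be decided. Weak signals limit the kidney and brain values of Ankrd1, Ankrd2, Csrp3, Xirp1 and Nmrk2, and the day 0 and day 7 hearts of Ankrd2.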
